A study of Mus musculus with 20 samples.

Results

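Adipokines and the adiponectin receptors were followed in bone marrow and kidney of mice given the platinum chemotherapy drug oxaliplatin. The group holds 7 genes of the 55486 listed in the count tables: leptin (Lep), adiponectin (Adipoq), resistin (Retn), complement factor D, also called adipsin (Cfd), retinol binding protein 4 (Rbp4) and the adiponectin receptors Adipor1 and Adipor2. The genes were chosen by symbol, with their oxaliplatin and vehicle counts in both tissues already known, so the treatment values of these 7 genes are given as a description and without a test.

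RNA was measured in 20 libraries, 5 for each of 4 groups, and every library came from its own tissue sample. Vehicle mice received 5% dextrose and oxaliplatin mice received 10 mg/kg oxaliplatin in 5% dextrose, intraperitoneally for 8 weeks. All were C57BL/6 mice from Charles River, 10 weeks old at the start, and no altered allele is named. The methods name male and female mice, but every library held Y-linked counts (2031 to 7154 summed over 4 genes), so the sexes behind these libraries are not settled. Marrow was spun out of tibia and femur into a preservative 6 days after the last dose, while the way kidney was dissected is not given in the sources used here, nor is whether a marrow and a kidney library with the same number came from 1 mouse.

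Adipokines are proteins that fat cells release into the blood. Leptin reports on fat stores and acts through the receptor Lepr, adiponectin acts through Adipor1, Adipor2 and T-cadherin, adipsin is the serine protease that starts the alternative complement pathway, and RBP4 carries retinol. Bone marrow holds its own adipocytes and stromal cells of the adipocyte lineage beside the blood-forming cells, and chemotherapy is known to be followed by more fat in marrow.

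The promoters of the 4 adipokines that adipocytes are best known for are shown because these genes were higher together in the treated marrow. Each line gives the 250 bases before the RefSeq start in GRCm38.p6, 5′ to 3′ on the plus strand, for Lep at chr6:29059971-29060220, Adipoq at chr16:23146286-23146535, Cfd at chr10:79890603-79890852 and Retn at chr8:3655520-3655769. Capitals mark matches, on either strand, to the C/EBP palindrome TTGCGCAA, the box CCAAT, the box TATAAA, the GC box GGGCGG or the nuclear receptor direct repeat AGGTCANAGGTCA.
Lep: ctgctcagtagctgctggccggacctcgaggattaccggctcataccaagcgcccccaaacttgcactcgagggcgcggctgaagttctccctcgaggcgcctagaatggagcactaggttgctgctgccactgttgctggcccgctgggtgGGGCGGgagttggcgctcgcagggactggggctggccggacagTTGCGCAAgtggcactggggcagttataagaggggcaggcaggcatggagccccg
Adipoq: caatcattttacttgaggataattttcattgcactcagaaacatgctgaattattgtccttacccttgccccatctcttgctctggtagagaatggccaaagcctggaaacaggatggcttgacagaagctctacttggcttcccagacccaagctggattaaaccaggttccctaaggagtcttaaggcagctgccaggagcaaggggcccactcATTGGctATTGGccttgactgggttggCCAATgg
Cfd: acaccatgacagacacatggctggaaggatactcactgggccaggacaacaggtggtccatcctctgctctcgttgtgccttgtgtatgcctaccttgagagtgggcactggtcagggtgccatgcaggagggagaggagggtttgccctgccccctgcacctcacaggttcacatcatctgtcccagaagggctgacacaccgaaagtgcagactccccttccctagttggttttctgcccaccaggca
Retn: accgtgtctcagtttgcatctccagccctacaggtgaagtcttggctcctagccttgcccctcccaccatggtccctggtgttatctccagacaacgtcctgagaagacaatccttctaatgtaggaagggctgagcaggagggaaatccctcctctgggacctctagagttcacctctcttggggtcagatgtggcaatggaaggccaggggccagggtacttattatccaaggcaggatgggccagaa
The C/EBP palindrome stood in Lep, between 55 and 48 bases before the start, and in 0.164% of the 32851 promoter windows of the same length in the table. Adipoq held CCAAT at 3 places, on the plus strand once and on the minus strand at the other places, a motif found in 33.8% of all windows, and Lep also held the GC box, found in 32.7%. The windows of Cfd and Retn matched none of the 5 motifs. Of the 9 windows of the 7 genes, 4 held the GC box, 3 held CCAAT, 1 held TATAAA (12.4% of all windows) and 0 held the direct repeat (0.0335% of all windows). These matches describe letters only.

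Total counts ranged from 30660153 to 41140527 in the 10 marrow libraries and from 24393007 to 30925430 in the 10 kidney libraries. Levels are given as CPM, a gene's counts over the scaled total of its library, set within each tissue, with the SD over 5 mice. A gene was called at an adjusted p under 0.05 in edgeR and a change beyond 1.5-fold. In marrow 5221 of 22363 tested genes were called (23.3%; 11.6% higher and 11.8% lower), and in kidney 2216 of 19293 (11.5%; 7.68% higher and 3.81% lower). The tissue labels held: 8 kidney markers summed to at least 15948 CPM in every kidney library and to at most 11.7 CPM in marrow.

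All 5 adipokines were higher in oxaliplatin marrow than in vehicle marrow, with no overlap between the groups, and Adipor1 was lower without overlap. Lep (chr6:29060220-29073877) went from near 0 to 12.1 CPM, Rbp4 (chr19:38116629-38125281) from 0.220 to 16.7 CPM, Cfd (chr10:79890853-79892655) from 6.97 to 702 CPM, Retn (chr8:3655770-3660110) from 0.833 to 11.9 CPM and Adipoq (chr16:23146536-23158028) from 24.5 to 182 CPM. Of all tested genes 24.9% had groups without overlap (11.4% higher and 13.5% lower). By the rule above 5 of the 7 genes were called higher and 1 lower, beside 23.3% of all tested genes, and since the genes were chosen on this contrast the count carries no weight of its own. For bulk tissue, more cells of a type and more RNA per cell cannot be told apart.

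**Figure D1:**
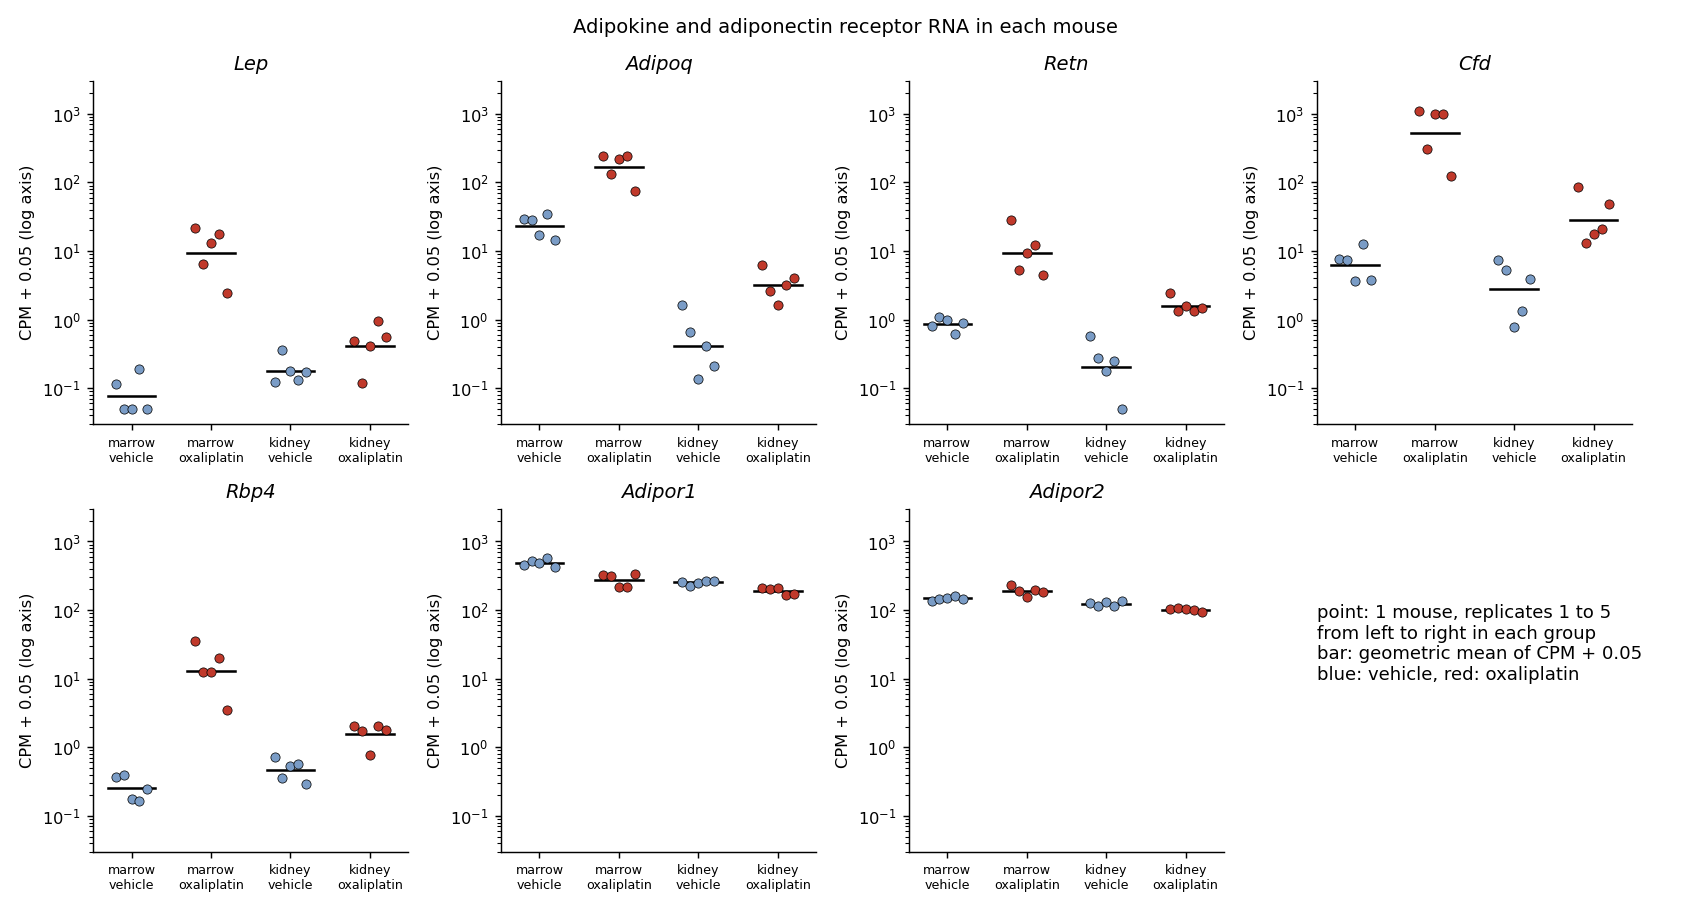
Levels of the 7 genes in each mouse, as CPM plus 0.05 on a log axis (points: mice 1 to 5 from left to right in each group; bars: geometric means; blue: vehicle; red: oxaliplatin). In marrow the 5 adipokines of the treated mice lie above every vehicle mouse, while the receptors move far less.

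Leptin RNA was close to absent from vehicle marrow. The 5 vehicle libraries held 2, 0, 0, 5 and 0 Lep counts, and the oxaliplatin libraries held 745, 203, 560, 782 and 88. A count of 0 at this depth allows up to 3 counts, between 0.0668 and 0.0975 CPM. The summed counts, 7 against 2378, gave a ratio of 290 with a 95% counting interval of 141 to 722. The fitted log2 fold change was 8.04 (SE 0.86) and became 9.31 without vehicle mouse 4, which held 5 of the 7 vehicle counts. Since Lep reached the level asked by the filter in 0 vehicle and 5 treated libraries, it entered the fit only because it was high after oxaliplatin and had to differ. Between 69.2% and 71.7% of marrow counts from 1 to 10 were even, against about 50% at higher counts, so an interval that takes counts as independent may be too narrow.

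Adiponectin RNA was already present without oxaliplatin. Vehicle mice 1 to 5 had 29.0, 27.8, 16.8, 34.5 and 14.5 CPM of Adipoq, and oxaliplatin mice had 241, 133, 217, 243 and 74.8 CPM. The lowest treated mouse was thus above the highest vehicle mouse, and the log2 fold change was 2.89 (SE 0.36), the smallest of the 5 adipokines. In vehicle marrow Adipoq exceeded Plin1, which coats the fat droplet of mature adipocytes, by a median count ratio of 19.1 (15.7 to 107). In oxaliplatin marrow that ratio was 1.44 (0.859 to 3.46), with no overlap. Ratios within a mouse do not depend on how libraries were scaled.

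Among the 7 genes, adipsin RNA had the highest mean level per kb of exon in the treated marrow. Cfd was at 7.60, 7.22, 3.62, 12.7 and 3.77 CPM in the vehicle mice and at 1106, 309, 980, 992 and 124 CPM in the oxaliplatin mice, a log2 fold change of 6.65 (SE 0.71). Every treated mouse lay far above the vehicle range, although the treated mice themselves differed by 8.93-fold. The count ratio of Cfd to Adipoq was 0.273 ± 0.056 (SD, n = 5) with vehicle and 3.44 ± 1.35 with oxaliplatin. The ratio of Cfd to Plin1 overlapped, from 4.59 to 23 with vehicle and from 3.51 to 6.6 with oxaliplatin.

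Resistin and RBP4 followed at lower levels. Retn was at 0.760, 1.05, 0.945, 0.570 and 0.845 CPM in vehicle marrow and at 28.4, 5.27, 9.16, 12.0 and 4.42 CPM in oxaliplatin marrow. Its log2 fold change was 3.83 (SE 0.50), or 3.21 without treated mouse 1, the highest. Rbp4 was at 0.316, 0.349, 0.126, 0.114 and 0.195 CPM with vehicle and at 35.1, 12.5, 12.6, 19.9 and 3.45 CPM with oxaliplatin (log2 fold change 6.22, SE 0.64). The vehicle libraries held 36 Rbp4 counts in all against 3183, a ratio of 75.5 (counting interval 54.4 to 108), and only 2 of them reached the filter's level, so Rbp4 too entered the fit through the treated group.

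The 5 oxaliplatin marrows ranked in nearly the same order for every adipokine. For Lep, Cfd, Retn and Rbp4 the order from high to low was mouse 1, 4, 3, 2 and 5, and for Adipoq it was 4, 1, 3, 2 and 5. Cidec, another lipid droplet protein, had the order 1, 4, 3, 2 and 5, and Plin1 the order 4, 3, 1, 2 and 5. Mouse 5, the lowest throughout, still exceeded every vehicle mouse, with 21.6 CPM of Plin1 against at most 2.19. The spread between the treated mice was widest for Rbp4, at 10.2-fold, and narrowest for Adipoq, at 3.24-fold. Libraries and cell composition are shared by these genes, so the common order is 1 description and not 5.

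**Figure D2:**
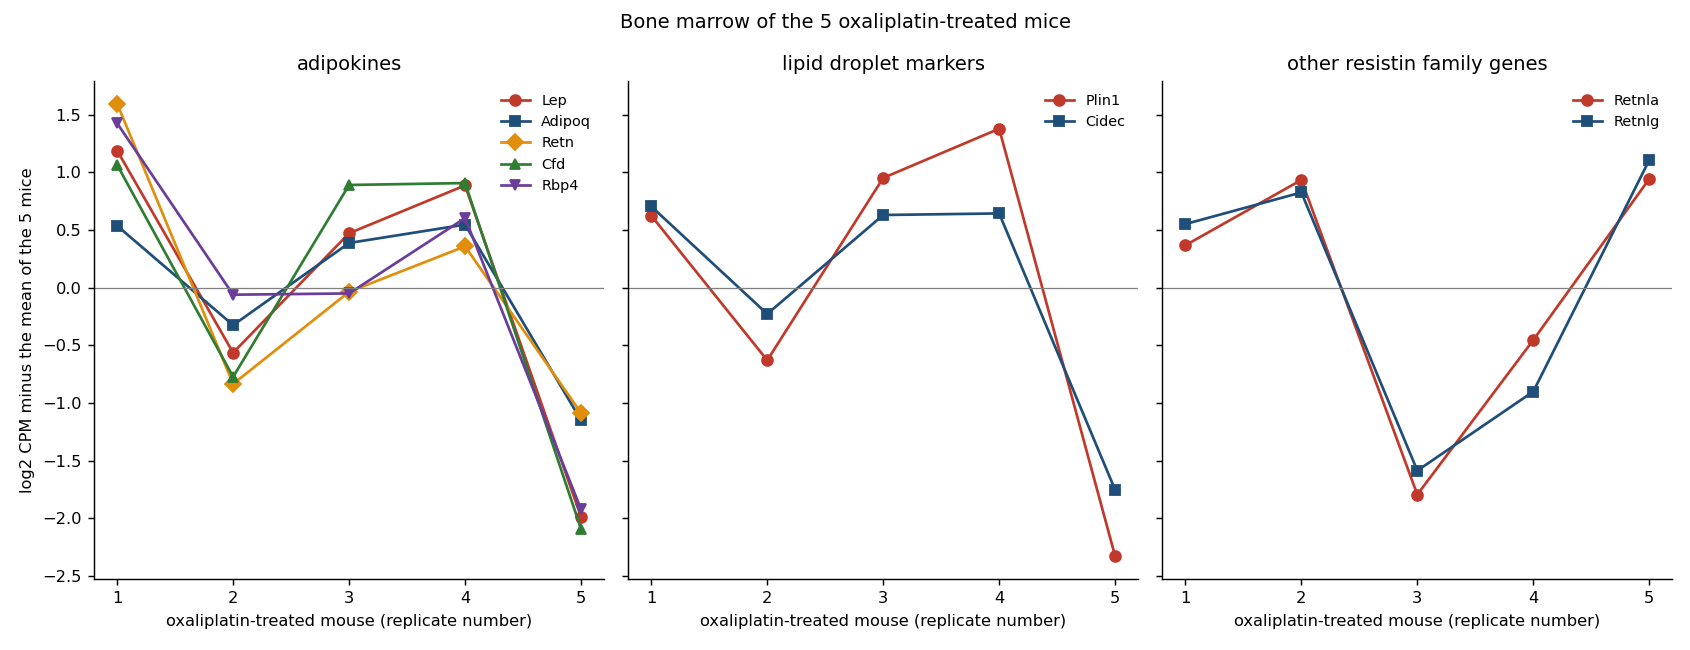
Log2 CPM in the marrow of the 5 oxaliplatin mice, relative to the mean of the 5 mice, for the adipokines, for Plin1 and Cidec, and for Retnla and Retnlg (1 line per gene). The adipokines and the lipid droplet genes are lowest in mouse 5, where the other resistin family genes are highest.

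Marker genes of several cell types also differed between the marrow groups. Of 21 adipocyte markers 18 were called higher and 1 lower, and their summed level was 442 to 572 CPM with vehicle and 1272 to 7694 CPM with oxaliplatin, lowest in mouse 5. Of the 18 genes 7 had fewer than 5 vehicle libraries at the filter's level, and with 10 counts asked of every library 14 markers were left and 11 were called higher. The largest rises were those of Cidec (log2 fold change 7.58, SE 0.58) and Plin1 (6.92, SE 0.82). In vehicle mouse 3 they held 8 and 5 counts, under the filter's level. Both thus passed the filter through the treated group and are given without a p. Next came the amino acid transporter Slc7a10 (6.65, SE 0.82) and carbonic anhydrase Car3 (6.41, SE 0.53, adjusted p = 5.7e-06). Slc7a10 reached the filter's level in 0 vehicle libraries, so it entered the fit only through the treated group and is given without a p. The Slc7a10 value was 7.36 without vehicle mouse 4. The gene called lower was Slc2a4, the insulin-regulated glucose transporter, at -1.29 (SE 0.28, adjusted p = 0.0037). The 4 brown adipocyte markers summed to 0.428 to 0.601 CPM with vehicle and 0.801 to 2.89 CPM with oxaliplatin. Of them only Cox8b could be tested and was called higher (1.95, SE 0.52), with overlap. It had 2 vehicle libraries at the filter's level, so its value is given without a p. Cidea had 0 to 2 counts with vehicle and 4 to 33 with oxaliplatin, and Ucp1, which defines brown fat, had 0 to 2 counts in each marrow library.

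Skeletal muscle markers also differed, 6 of 9 being called higher and none of the 9 being at 0 throughout. They summed to 11.2 to 116 CPM with vehicle and 49.8 to 886 CPM with oxaliplatin. Treated mouse 4 had the lowest of these sums, 49.8 CPM, which lay under that of 2 vehicle mice, and it had 17.4 CPM of Lep and 992 CPM of Cfd. Marrow stromal markers summed to 1750 to 2224 CPM and 2069 to 3202 CPM, and 7 blood cell markers to 13333 to 21493 CPM and 4788 to 7877 CPM. These markers cannot separate the makeup of the tissue from RNA per cell. How far a change in makeup accounts for the adipokine values was not tested.

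In kidney 4 of the 5 adipokines were again higher after oxaliplatin without overlap. Cfd went from 3.69 ± 2.73 to 36.9 ± 30.2 CPM, Adipoq from 0.558 ± 0.600 to 3.51 ± 1.77 CPM, Retn from 0.216 ± 0.193 to 1.58 ± 0.452 CPM and Rbp4 from 0.444 ± 0.172 to 1.62 ± 0.523 CPM (SD, n = 5). Lep overlapped and was too low to be tested. Of all tested kidney genes 20.7% had groups without overlap (9.69% higher and 11% lower). Of the 6 tested genes 4 were called higher and 0 lower, beside 11.5% of all genes, again without weight because these values chose the group.

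The kidney counts were small and the vehicle mice uneven. Cfd counts were 194, 139, 17, 32 and 96 with vehicle and 2366, 382, 485, 600 and 1602 with oxaliplatin (log2 fold change 3.30, SE 0.76). Adipoq counts were 42, 16, 2, 9 and 4 with vehicle and 175, 76, 44, 91 and 132 with oxaliplatin (2.61, SE 0.61), and the lowest treated mouse, at 1.58 CPM, barely exceeded the highest vehicle mouse, at 1.57 CPM. Retn counts were 14, 6, 3, 5 and 0 against 66, 38, 42, 37 and 48 (2.81, SE 0.46). For Adipoq and Retn the value depended on vehicle mouse 1, without which it was 3.48 and 3.44.

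Rbp4 counts in kidney were 18, 8, 11, 13 and 6 with vehicle and 55, 50, 20, 57 and 57 with oxaliplatin (log2 fold change 1.85, SE 0.34). Lep counts were 2, 8, 3, 2 and 3 against 12, 2, 10, 26 and 17, a ratio of 3.18 with a counting interval of 1.87 to 5.69. Only 2 vehicle libraries reached the filter's level for Adipoq, 1 for Retn and 3 for Rbp4, so these genes entered the fit through the treated group. Low kidney counts were also mostly even, from 71.1% to 75.1%.

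Fat markers in the kidney libraries did not move as one. Of 18 tested adipocyte markers 7 were called higher and 0 lower, with a summed level of 1264 to 1503 CPM with vehicle and 1117 to 1350 CPM with oxaliplatin. That sum was set by a few genes abundant in kidney. With the vehicle libraries of both tissues scaled jointly, vehicle kidney had 515 CPM of Gpd1, 343 of Dgat2, 217 of Scd1 and 197 of Pnpla2. Plin1 was at 1.73 and Cidec at 1.58 CPM, so the sum does not measure fat cells in kidney. The largest rises were those of Mrap, an accessory protein of melanocortin receptors (log2 fold change 3.31, SE 0.37), and the adrenergic receptor Adrb3 (2.58, SE 0.58). Next came Cidec (2.00, SE 0.47, adjusted p = 0.010) and the fatty acid carrier Fabp4 (1.55, SE 0.24, adjusted p = 0.0015). Mrap and Adrb3 reached the filter's level in 0 and 1 vehicle libraries. They entered the fit through the treated group, so they are given without a p. Plin1 was at 1.26 (SE 0.64, adjusted p = 0.17). Ucp1 had 30, 28, 0, 2 and 12 counts in the vehicle kidneys and 0, 23, 2, 0 and 0 in the oxaliplatin kidneys. Cidea, the tested brown adipocyte marker in kidney, had 40, 26, 2, 4 and 7 counts with vehicle and 30, 34, 10, 18 and 24 with oxaliplatin (0.36, SE 0.59, adjusted p = 0.68), and the 4 markers summed to 0.259 to 3.55 CPM and 0.575 to 2.53 CPM. The 3 libraries over 20 Ucp1 counts, those of vehicle mice 1 and 2 and oxaliplatin mouse 2, were left out in a fit chosen after seeing the data. The log2 fold changes were then 4.15 for Adipoq, 3.85 for Retn, 4.42 for Cfd and 1.94 for Rbp4. Vehicle mice 1 and 2 had the highest vehicle counts of Adipoq, Retn and Cfd, so leaving them out lowered the vehicle level of these genes. The part of attached fat in the kidney values was not tested.

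The adiponectin receptors differed less between the groups than the adipokines did. Adipor1 (chr1:134415378-134433351) was at 458, 516, 490, 570 and 431 CPM in vehicle marrow and at 321, 317, 220, 215 and 339 CPM in oxaliplatin marrow, a log2 fold change of -0.80 (SE 0.15) with no overlap. Its lowest values were those of mice 3 and 4, which had the highest summed adipocyte markers, at 7694 and 6902 CPM, and the lowest summed blood cell markers, at 6227 and 4788 CPM. Scd1 alone held 4335 and 3440 CPM of these adipocyte sums. Plin1 and Fabp4 were also highest in mice 3 and 4, whereas Cidec, Lep, Cfd, Retn and Rbp4 were highest in mouse 1, which had 321 CPM of Adipor1. Single blood cell genes went both ways. The red cell genes Hbb-bs and Alas2 and the neutrophil genes S100a8 and Retnlg were also lowest in mice 3 and 4. Mouse 5, with the highest Adipor1 of the treated mice, was close to mouse 3 for Hbb-bs (1351 against 1346 CPM) and Alas2 (155 against 151 CPM). It was highest for S100a8 and Retnlg. The neutrophil genes Mpo (2101 and 1807 CPM) and Elane (826 and 569 CPM) were highest in mice 3 and 4. The part of these shifts in the Adipor1 values was not tested. Adipor2 (chr6:119353150-119417704) was at 138, 145, 151, 160 and 144 CPM with vehicle and at 231, 187, 154, 195 and 186 CPM with oxaliplatin (0.37, SE 0.10), and the groups overlapped through mouse 3.

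In kidney both receptors were lower after oxaliplatin without overlap. Adipor1 was at 255 ± 17.1 CPM with vehicle and 192 ± 20.1 CPM with oxaliplatin (log2 fold change -0.41, SE 0.08). Adipor2 was at 125, 113, 130, 116 and 133 CPM with vehicle and at 102, 107, 102, 99.6 and 94.9 CPM with oxaliplatin (-0.29, SE 0.07). Per kb of exon the ratio of Adipor1 to Adipor2 in marrow was 3.97 ± 0.28 with vehicle and 1.77 ± 0.33 with oxaliplatin, and in kidney 2.46 ± 0.17 and 2.25 ± 0.18 (SD, n = 5). The marrow ratios did not overlap and the kidney ratios did.

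**Figure D3:**
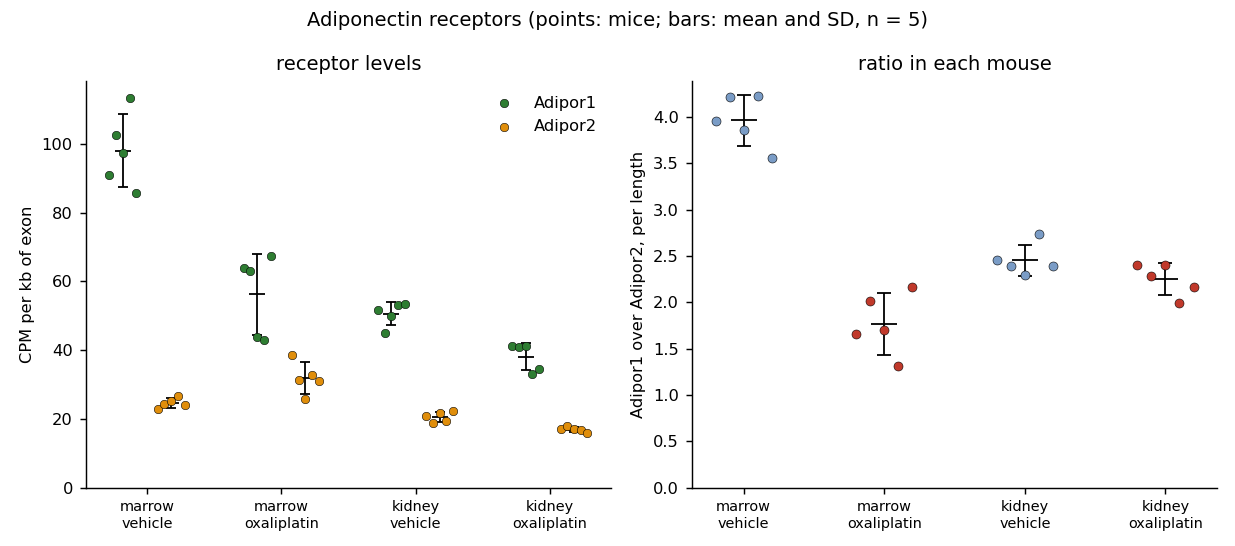
Adiponectin receptor levels as CPM per kb of exon (left) and their ratio in each mouse (right), by tissue and treatment (points: mice; bars: mean and SD, n = 5). In marrow the ratio is 3.56 to 4.23 with vehicle and 1.31 to 2.16 with oxaliplatin.

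Per kb of exon, the order of levels in vehicle marrow was Adipor1 (98.1 CPM per kb), Adipor2 (24.7), Adipoq (17.7), Cfd (7.56), Retn (0.528), Rbp4 (0.164) and Lep (0.0123). In oxaliplatin marrow Cfd (762 CPM per kb) and Adipoq (132) stood above Adipor1 (56.2), Adipor2 (31.9), Rbp4 (12.5), Retn (7.51) and Lep (3.62). Across the 4 groups, with tissues scaled separately, Adipoq and Retn had no overlap between neighbouring groups. Adipoq ran from oxaliplatin marrow through vehicle marrow and oxaliplatin kidney to vehicle kidney, and Retn from oxaliplatin marrow through oxaliplatin kidney and vehicle marrow to vehicle kidney. With the vehicle libraries scaled jointly, Retn overlapped between marrow and kidney, so its order between the tissues depends on the scaling. For Cfd, Rbp4 and Lep oxaliplatin marrow stood highest, vehicle marrow and vehicle kidney overlapped for all 3 genes, and for Lep oxaliplatin kidney overlapped them too. For Adipor1 oxaliplatin marrow and vehicle kidney overlapped, and for Adipor2 both marrow groups.

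The vehicle tissues were compared because that contrast played no part in choosing the genes. In a joint scaling of the 10 vehicle libraries, 74.9% of 21703 tested genes were called between kidney and marrow (35.5% higher and 39.4% lower in kidney). Adipoq and Retn reached the filter's level in 5 marrow libraries each but in only 3 and 1 kidney libraries, so they entered this fit through marrow, where they were high, and their values are given without a p. Adipoq was at 0.608 ± 0.651 CPM in kidney and 20.4 ± 7.09 CPM in marrow (log2 difference -5.01, SE 0.51, no overlap), or -5.90 without kidney mouse 1. Retn was at 0.236 ± 0.209 CPM in kidney and 0.693 ± 0.151 CPM in marrow (-1.51, SE 0.50), with overlap, at -2.16 without kidney mouse 1 and at -0.01 with Y-linked expression as a covariate. Y-linked genes summed to 156 to 173 CPM in vehicle marrow and 82.3 to 106 CPM in vehicle kidney. The covariate thus separates the tissues by itself, and the values it gives cannot check this contrast.

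Adipor1 differed by -0.56 (SE 0.08, adjusted p = 2.4e-06) with no overlap and missed the 1.5-fold threshold. It passed that threshold in 4 other settings, among them the Y-linked covariate, which cannot check this contrast. It also passed without marrow mouse 1 or 5 or kidney mouse 5 (-0.61 to -0.59). Cfd differed by -0.52 (SE 0.58, adjusted p = 0.42) and Adipor2 by 0.14 (SE 0.07, adjusted p = 0.060), and the sign of Adipor2 turned to -0.25 with scaling by library size alone. Lep and Rbp4 were too low in both tissues to be tested.

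The difference between the tissues in the treatment effect is described only, for the same reason as the effects themselves. On the log2 scale the kidney value minus the marrow value, in a joint fit of 20 libraries, was -6.43 for Lep, -4.41 for Rbp4, -3.42 for Cfd, -1.05 for Retn, -0.35 for Adipoq, 0.34 for Adipor1 and -0.71 for Adipor2. Adipor2 was the gene whose treated mice all lay above the vehicle mean in marrow and all below it in kidney.

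Around leptin, 14 genes of its signalling were tested in marrow and 4 were called higher, with a list median of 0.11 against -0.04 over all tested genes. Irs1, an adaptor of insulin signalling that leptin also uses, rose by 2.21 on the log2 scale (SE 0.21, adjusted p = 5.4e-06). Socs3, the feedback inhibitor of the receptor, rose by 1.74 (SE 0.12, adjusted p = 4.4e-07), Irs2 by 0.89 (SE 0.10, adjusted p = 3.0e-05) and the phosphatase Ptpn11 by 0.59 (SE 0.11, adjusted p = 9.2e-04). The receptor Lepr, which also marks marrow stromal cells, was at 80.9 ± 11.3 CPM with vehicle and 57.7 ± 9.41 CPM with oxaliplatin (-0.49, SE 0.13, adjusted p = 0.011), under the 1.5-fold threshold. The call of Ptpn11 was lost without vehicle mouse 1, 2 or 5 or treated mouse 2 or 3 (0.53 to 0.57).

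In kidney 3 of the 14 leptin genes were called higher, with a median of -0.01 against 0.02 over all genes. Lepr itself was among them, from 5.99 ± 1.52 to 9.54 ± 2.43 CPM (log2 fold change 0.68, SE 0.18, adjusted p = 0.011), with Socs3 (0.67, SE 0.18, adjusted p = 0.0086) and Irs1 (0.60, SE 0.08, adjusted p = 4.1e-05). These calls lay near the fold threshold. Lepr lost it without vehicle mouse 2 (0.58) or treated mouse 4 (0.52), and it also missed the adjusted p with the Y-linked covariate (0.56, adjusted p = 0.053) and without the 3 libraries over 20 Ucp1 counts (0.56, adjusted p = 0.064). Of the other calls, Socs3 was lost without treated mouse 3 (0.58) and Irs1 without vehicle mouse 1 or 4 or treated mouse 1 (0.55 to 0.58). The Lepr response differed between the tissues by 1.10 (SE 0.23, interaction adjusted p = 9.7e-04).

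Around adiponectin, 4 of 15 genes were called higher in marrow (median 0.22) and 0 in kidney (median 0.09) by edgeR and by DESeq2. In kidney 7 of the 15 had an unadjusted p under 0.05 and 5 an adjusted p under 0.05, with changes under 1.5-fold. Cdh13, which encodes T-cadherin, rose from 0.612 ± 0.475 to 5.37 ± 5.22 CPM in marrow (log2 fold change 3.14, SE 0.68), or by 2.36 without treated mouse 4. Vehicle mouse 2 held 6 counts, under the filter's level. Cdh13 thus entered the marrow fit through the treated group, and its marrow change is given without a p. In kidney it was at 6.18 ± 0.799 and 6.19 ± 2.41 CPM (log2 fold change 0.00, SE 0.22, adjusted p = 0.999), and the responses differed by -3.20 (SE 0.72, interaction adjusted p = 0.0019), or by -2.41 without that marrow library. The other rises in marrow were those of Gstk1, which helps adiponectin assemble (1.11, SE 0.27, adjusted p = 0.0061), the AMP kinase subunit Prkaa2 (1.03, SE 0.19, adjusted p = 0.0012) and the coactivator Ppargc1a (0.93, SE 0.33, adjusted p = 0.046). The last call held in only 2 of 10 fits that left out 1 library, those without vehicle mouse 2 or treated mouse 5, and ran from 0.80 to 0.99 in the others.

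Of 4 tested genes of the resistin family and its proposed receptors, 1 was called higher in marrow (median 0.25) and 1 of 2 in kidney (median 0.30). Retnla, known from alternatively activated macrophages, rose in marrow from 0.709 ± 0.146 to 26.6 ± 15.7 CPM (log2 fold change 5.22, SE 0.52, adjusted p = 1.7e-05). Retnlg, a gene of neutrophils, was at 432 ± 41 and 482 ± 304 CPM (0.16, SE 0.42, adjusted p = 0.81). Both ranked the treated mice 5, 2, 1, 4 and 3, with mouse 5 highest, where Retn was lowest. In kidney Retnla had at most 10 counts and Retnlg at most 6, and Retnlb was at 0 in every library. Of the proposed resistin receptors, Tlr4 was called in kidney (0.64, SE 0.23, adjusted p = 0.040), a call lost without vehicle mouse 1, 3, 4 or 5 or treated mouse 4 or 5 (0.45 to 0.64), and Cap1 in neither tissue (0.20 in marrow and -0.03 in kidney).

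Around adipsin, 2 of 6 tested genes of the alternative complement pathway were called higher in marrow (median 0.32) and 3 of 8 in kidney (median 0.51), none lower. Marrow C3ar1, the receptor of the C3a fragment, rose by 1.81 (SE 0.18, adjusted p = 7.5e-06). C3, the substrate of the pathway, was at 896 ± 81.9 and 651 ± 198 CPM in marrow (-0.46, SE 0.19, adjusted p = 0.078) and rose in kidney from 10.8 ± 1.98 to 76.0 ± 33.0 CPM (2.81, SE 0.33, adjusted p = 3.6e-04). The C3 responses differed by 3.22 (SE 0.33, interaction adjusted p = 3.0e-07). Factor B (Cfb), the protein that adipsin cleaves, was too low to test in marrow and at -0.17 in kidney (SE 0.08, adjusted p = 0.13). Kidney Cfi, a protease that inactivates C3b, rose by 0.81 (SE 0.17, adjusted p = 0.0015), while Masp1, at 0.72 (adjusted p = 0.035), lost its call in 6 of 10 fits without 1 library (0.60 to 0.70): those without vehicle mouse 1, 4 or 5 or treated mouse 1, 4 or 5.

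Around RBP4, 4 of 12 retinoid genes were called higher and 1 lower in marrow (median 0.55), and 5 of 15 higher and 2 lower in kidney (median 0.27). Cyp26b1, which breaks down retinoic acid, rose in marrow from 0.818 ± 0.179 to 42.5 ± 20.4 CPM (log2 fold change 5.69, SE 0.46, adjusted p = 3.8e-06). Aldh1a1, which makes retinoic acid, fell in marrow by 1.62 (SE 0.18, adjusted p = 2.0e-05) and rose in kidney by 2.31 (SE 0.21, adjusted p = 3.8e-05), a difference of 3.86 (SE 0.29, interaction adjusted p = 3.9e-09). The receptors Rarb (1.20) and Rxra (0.60) were also called in marrow. Rarb was not called without vehicle mouse 1, 3 or 5 or treated mouse 1, 2 or 4 (1.06 to 1.29), nor Rxra without vehicle mouse 1 or 5 or treated mouse 1, 2 or 4 (0.54 to 0.58).

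Several genes of retinol handling changed in kidney. Ttr, the protein that carries RBP4 in blood, fell from 153 ± 26.8 to 47.4 ± 13.6 CPM (log2 fold change -1.69, SE 0.21, adjusted p = 4.0e-04). The RBP4 receptor Stra6 rose from 8.38 ± 2.92 to 21.8 ± 6.92 CPM (1.38, SE 0.30, adjusted p = 0.0074), Aldh1a2 by 1.09 (SE 0.20, adjusted p = 5.5e-04), Lrat, which esterifies retinol, by 1.07 (SE 0.27, adjusted p = 0.0072) and the related receptor Stra6l by 0.88 (SE 0.17, adjusted p = 0.0016). Lrp2, the tubular receptor that takes RBP4 back from the filtrate, was at 4699 ± 809 and 4565 ± 405 CPM (-0.04, SE 0.11, adjusted p = 0.80). Rdh10, which oxidises retinol, fell by 0.64 (SE 0.12, adjusted p = 0.0013), a call lost without vehicle mouse 5 (-0.54) or treated mouse 5 (-0.56).

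Of 24 other adipokines tested in marrow 14 were called higher and 2 lower (median 1.16). Apelin (Apln) rose by 3.67 (SE 0.43, adjusted p = 3.5e-05), the chemokine Ccl2 by 2.85 (SE 0.40, adjusted p = 1.2e-04), Wnt5a by 2.60 (SE 0.44, adjusted p = 4.9e-04) and the lipase inhibitor Angptl4 by 2.58 (SE 0.26, adjusted p = 1.3e-05). Dpp4 fell by 1.81 (SE 0.14, adjusted p = 1.3e-06) and C1qtnf12 by 1.49 (SE 0.21, adjusted p = 1.6e-04). Chemerin (Rarres2) rose in marrow by 2.46 (SE 0.30, adjusted p = 5.1e-05) and its receptor Cmklr1 by 1.51 (SE 0.15, adjusted p = 9.3e-06), while the chemerin binding protein Ccrl2 fell by 1.61 (SE 0.12, adjusted p = 1.1e-06).

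Of 5 tested receptors of other adipokines in marrow, 3 were called higher and 1 lower (median 1.51), and 0 of 4 in kidney (median 0.33) by edgeR and by DESeq2. Both genes of these 4 with an unadjusted p under 0.05, Cmklr1 (0.46, adjusted p = 0.049) and Insr (0.21, adjusted p = 0.043), changed by less than 1.5-fold in kidney. The apelin receptor Aplnr rose in marrow by 1.54 (SE 0.43, adjusted p = 0.017), a call lost without treated mouse 3 (1.36). Klb, the co-receptor of FGF21, was at 0.140 ± 0.0539 CPM with vehicle and 5.40 ± 3.44 CPM with oxaliplatin (5.23, SE 0.58). It reached the filter's level in 0 vehicle libraries and so entered the fit only through the treated group, and it is given without a p. It ranked the treated mice 1, 4, 3, 2 and 5 as Lep did.

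In kidney 8 of 22 other adipokines were called higher and 4 lower (median 0.43). Haptoglobin (Hp) rose by 2.67 (SE 0.51, adjusted p = 0.0031), Sfrp5 by 2.21 (SE 0.29), Lcn2 by 2.06 (SE 0.29, adjusted p = 1.3e-04) and Rarres2 by 1.79 (SE 0.38, adjusted p = 0.0082). Sfrp5 did not reach the filter's level in every vehicle library. It passed the filter through the treated group and is given without a p. C1qtnf3 fell by 1.09 (SE 0.14, adjusted p = 1.3e-04), Azgp1 by 0.98 (SE 0.13, adjusted p = 1.7e-04), C1qtnf12 by 0.70 (SE 0.11, adjusted p = 4.0e-04) and Metrnl by 0.59 (SE 0.14, adjusted p = 0.0073). The call of Metrnl was lost without vehicle mouse 3 or 4 or treated mouse 4 or 5 (-0.58 to -0.45). C1qtnf12 fell under the fold threshold with library size alone (-0.57) and with the Y-linked covariate (-0.58).

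Of 10 adipogenic transcription factors 4 were called higher in each tissue and none lower (median 0.38 in marrow and 0.31 in kidney). In marrow these were Zfp423 (log2 fold change 1.76, SE 0.21), Klf15 (1.67, SE 0.26), Cebpa (1.21, SE 0.14) and Pparg (0.90, SE 0.15), and in kidney Cebpd (1.61, SE 0.29), Pparg (1.00, SE 0.25), Klf5 (0.83, SE 0.17) and Zfp423 (0.78, SE 0.14). Pparg, the master regulator of fat cell formation and also an adipocyte marker of the list above, was thus called in both tissues, from 28.2 ± 2.84 to 52.6 ± 11.2 CPM in marrow and from 2.00 ± 0.327 to 3.99 ± 1.62 CPM in kidney.

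**Figure D4:**
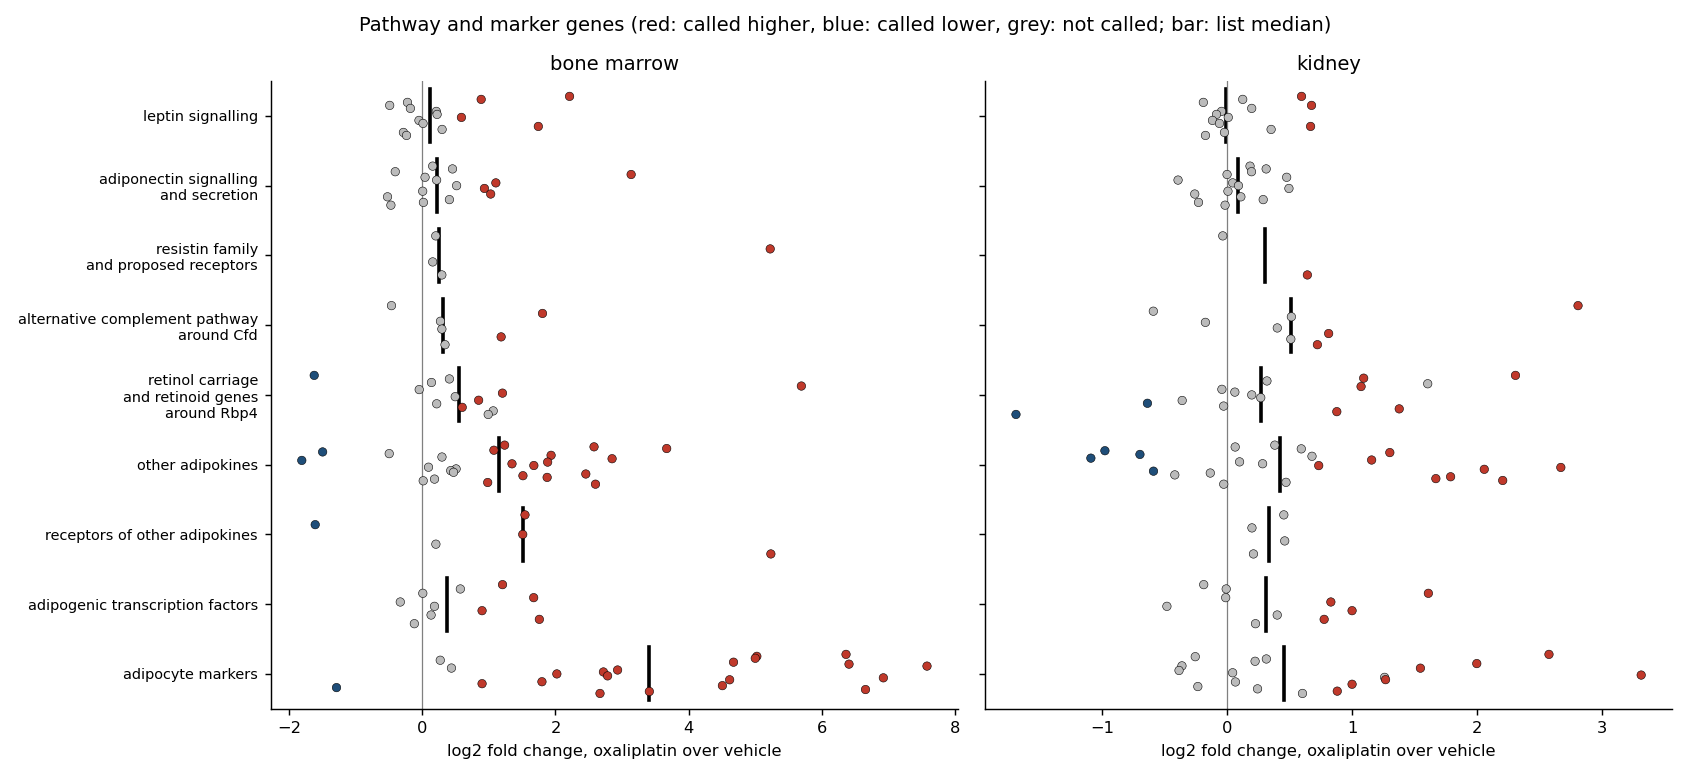
Log2 fold change of oxaliplatin over vehicle for every tested gene of the 8 pathway lists and the adipocyte markers, in marrow (left) and kidney (right), on different horizontal scales (red: called higher; blue: called lower; grey: not called; vertical bar: list median). The adipocyte markers have a median of 3.41 in marrow and 0.46 in kidney.

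Over all pathway genes together, 36 were called higher and 4 lower of 90 tested in marrow (median 0.42), and 24 higher and 6 lower of 90 tested in kidney (median 0.20). A response that differed between the tissues was found for 51 of 98 pathway genes (52.0%), beside 30.1% of all 24321 genes tested for it, and 38 of the 51 were shifted toward marrow. The lists were chosen with earlier results of these data known, so these counts are a description and no test of the pathways.

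Over the 10 marrow libraries, after each group's mean was subtracted, the 5 genes most like Adipoq among 14648 were Cfd (r = 0.98), Slc22a3 (0.96), Lzic (0.95), Rcn2 (0.95) and Commd10 (0.95). The 5 most like Retn were Fam220a (r = 0.95), the immunoglobulin segments Ighv1-22 (0.94) and Ighv1-58 (0.93), Rassf1 (0.92) and Fbxw9 (0.92). Adipoq and Retn had r = 0.54 with each other. These points share libraries and depth, and the values are a description. Lep and Rbp4 were under the level set for this comparison.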

How the data were processed

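Bone marrow and kidney RNA of vehicle-treated and oxaliplatin-treated mice was compared in 20 libraries, grouped by their titles. The authors deposited raw read counts per gene, not normalized. The paper names STAR, an Ensembl annotation and Partek Flow, and a SMARTer cDNA kit, whereas the labels name featureCounts among their tools, and removal of ribosomal RNA with random hexamers, so counting and chemistry are given in 2 ways. Strand use is not given in the sources used here. Each table had 55774 lines, from which 287 exact repeats and 1 incomplete line were dropped. Positions are from GENCODE mouse release 21 on GRCm38, which matched 55141 identifiers, and no member overlapped another gene.

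Low genes were removed by filterByExpr (minimum count 10). After TMM scaling, differences were tested by the two-sided robust quasi-likelihood test of edgeR 4.0.16 (limma 3.58.1, R 4.3.3), with Benjamini-Hochberg adjustment over all tested genes of each fit, which gave every adjusted p. Fits held the 10 libraries of a tissue, the 10 vehicle libraries, or all 20 with a tissue by treatment term. The members and gene lists were chosen with earlier results of these data known. Named list genes are up to 4 called genes with the largest change per list, direction and tissue, and partners of the members whatever their value. Asip was not found by symbol, and 2 called list genes are not reported here by name. Likeness was limited to genes whose mean log2 CPM reached 1 (prior count 2). Counting intervals cover counting error only. Replicates differed by more than sampling noise (chi-square per degree of freedom at least 7.51). The Y-linked counts in every library do not match the male and female mice named in the methods.

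Alternatives were DESeq2 1.42.0, its size factors, library size alone, a filter of 1 count, a filter of 10 counts in all samples, a Y-linked covariate, the replicate number as a block, hemoglobin genes left out in marrow, each library left out, and, chosen after seeing the data, 3 kidney libraries with Ucp1 counts left out. On simulated data edgeR recovered 99% of genes changed 2-fold in the marrow fit (2 false calls among 22187 genes), 100% in the kidney fit (5 among 18774), 100% in the vehicle fit (5 among 21544) and 89% in the interaction fit (13 among 22629). In the vehicle and interaction fits the simulated kidney libraries took the mean levels of vehicle marrow, unlike real kidney. In every fit the simulated spread was the same for all genes, and changes were placed only in well-counted genes. Whether the recovery and false calls carry over to the real libraries, with their spread between replicates and low counts, was not tested. Plots came from matplotlib 3.10.9 under Python 3.11.15.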

Additional observations from a re-analysis of the deposited data

Results flagged for a closer look

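Of 64 sets of 5 mice checked for a mouse far from the others, 8 stood out. The cutoff flags about 1 in 20 sets that are independent and normally distributed. The sets here share genes and mice, so the count cannot be set against that rate. Lep in vehicle kidney mouse 2 was at 0.305 CPM, Retn in oxaliplatin kidney mouse 1 at 2.37 CPM and Rbp4 in oxaliplatin kidney mouse 3, the low one, at 0.719 CPM. Vehicle marrow mouse 3, with 5 Plin1 counts, had count ratios to Plin1 of 107 for Adipoq, 23 for Cfd and 6 for Retn. The ratio of Cfd to Adipoq was 24 in vehicle kidney mouse 5. The summed skeletal muscle markers were 1.60 CPM in vehicle kidney mouse 3.

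Responses that differed between the tissues stood out as well. For Adipor2 all treated mice lay above the vehicle mean in marrow and below it in kidney, with a difference of -0.71 on the log2 scale that was not tested. By the tissue by treatment test of edgeR, 51 pathway genes differed. Among them 6 had an adjusted p under 0.05 in each tissue with opposite signs, and the kidney value minus the marrow value was 3.86 for Aldh1a1, 2.03 for Dpp4, 1.10 for Lepr, 0.55 for Camkk2, -1.35 for Prkaa2 and -1.15 for Metrnl.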

How the results depend on the processing

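Of 462 recomputed values of the comparisons, 443 counted as unchanged, by a rule that depended on the kind of value. Tested genes had to keep their direction and side of the threshold. Treatment changes of the members had to move by less than the replicate spread, and counts of called genes had to stay within 1.5-fold. For the called named genes 1526 values kept direction and call and 72 lost the call. The cause of the changes was not tested. Leaving out each library in turn gave 7.73 to 9.31 for marrow Lep, -0.61 to -0.50 for Adipor1 between the vehicle tissues and 4 to 6 kidney pathway genes called lower. Without the 3 kidney libraries with over 20 Ucp1 counts, kidney Adipoq was at 4.15 and Retn at 3.85. Library size alone gave -0.28 for Adipor1 and -0.15 for Adipor2 in kidney, and it moved the median of all genes by 0.15 in marrow and 0.13 in kidney, so that 63.4% of marrow calls (49.6% with TMM) and 82.7% of kidney calls (66.8% with TMM) were higher. Kidney pathway genes called lower numbered 3 with library size alone and 3 with the Y-linked covariate. Between the vehicle tissues, Adipor1 passed the fold threshold at -0.94 (library size alone), -0.60 (no filter), -0.73 (10 counts in every sample) and -1.19 (Y-linked covariate). Adipor2 turned to -0.25 (library size alone), -0.036 (10 counts in every sample) and -0.22 (Y-linked covariate), and Retn was at -0.012 (Y-linked covariate). Y-linked expression itself separated the vehicle tissues, so the values with that covariate cannot check this contrast. Between these tissues 10361 genes were called with 10 counts in every sample. That filter left 14 marrow adipocyte markers, of which 11 were called higher. Genes not called also turned sign. Marrow Retnlg was at -0.13 with the block, -0.23 with the Y-linked covariate and -0.10 to 0.40 without 1 library. In kidney, library size alone gave 0.10 for Cap1, 0.14 for Cdh13 and 0.10 for Lrp2, while Cdh13 was at 0.0012 with no filter, 0.027 with 10 counts in every sample and -0.17 to 0.15 without 1 library, and Lrp2 at -0.077 to 0.072.

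Replicate numbers were not taken to pair the libraries. Same-numbered libraries had correlations of -0.07 to 0.29 between marrow groups, -0.16 to 0.09 between kidney groups, -0.08 to 0.04 between the vehicle tissues and -0.05 to 0.16 between the treated tissues. Of 5 numbers, 2, 2, 1 and 2 correlated best with their own, among them treated mice 3 (0.13) and 5 (0.16) across the tissues. With the number as a replicate block, 4968 genes were called in marrow, 2017 in kidney and 16030 between the vehicle tissues, with 32 pathway genes higher in marrow, 23 in kidney and 48 that differed between tissues. The block ended the calls of marrow Aplnr, Ppargc1a, Rarb and Rxra and of kidney Masp1 and Tlr4. In kidney the Y-linked covariate also ended those of Lepr, Masp1, Tlr4, Metrnl, Rdh10 and C1qtnf12, library size alone those of Metrnl, Rdh10 and C1qtnf12, and leaving out the Ucp1 libraries those of Lepr and Masp1. A filter of 1 count ended those of marrow Aplnr and Ppargc1a and kidney Metrnl, and a filter of 10 counts in all samples those of marrow Ptpn11 and kidney Metrnl. Counts under 10 limit what Lep in vehicle marrow and kidney, and Retn and Adipoq in vehicle kidney, can show.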
